A study of Mus musculus with 16 samples.

Results

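The cytosolic ribosomal protein genes encode the proteins of the ribosomes that translate cytosolic mRNA. They were taken as the rows of the count table whose symbol is Rpl or Rps with a number, an optional closing a, x or l, or one of the P-stalk names, and which held at least 10 counts in total. This rule gave 81 of 55385 listed genes, 47 named *Rpl*, 31 named *Rps* and 3 named *Rplp*. A further symbol, *Rpl10l*, fitted the pattern but had 0 counts in every library and is no member. Of the 81 genes, 79 passed the filter on low counts and were tested among 14513 genes. Below the filter, *Rpl24* and *Rpl32l* held 122 and 57 counts over all libraries.

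RNA-Seq was performed on CD11b+ cells, isolated with magnetic beads and columns from the brains of mice aged 20 weeks. The study's methods name female mice among those obtained for breeding and do not separately state the sex of the sequenced mice. Each of 4 genotypes had 4 libraries, numbered by replicate. The WT mice (*Card9*+/+) carried neither change. The mice labelled *Card9*-/- carry a germline deletion of the gene of CARD9, an adaptor protein of innate immune signaling. The 5xFAD mice have intact *Card9* and carry the 5xFAD transgenes, driven by a neuronal promoter, so that Aβ accumulates in the brain. The *Card9*-/-5xFAD mice carry both changes. All were bred from 5xFAD, *Card9*-/- and C57BL/6J stocks, and meninges and choroid plexus were removed before the sort, which selects myeloid cells and not microglia alone. Whether same-numbered libraries of different genotypes share a litter, day or batch is not given in the labels.

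Each ribosome has a small 40S subunit, built from RPS proteins and 18S rRNA, and a large 60S subunit, built from RPL proteins and the other rRNAs. The P-stalk proteins on the 60S subunit recruit translation factors. Most ribosomal protein mRNAs start with a run of pyrimidines, the 5′ terminal oligopyrimidine (TOP) motif, through which mTORC1 and LARP1 control their translation, and the proteins are made in matched amounts because each ribosome holds about the same number of each.

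The starts of 7 members are shown because they carry the genes on which the results turn, and because the TOP motif is the sequence feature that members are known to share. Each line gives 30 bases of the RefSeq promoter on GRCm38.p6, 15 before and 15 after the annotated start, with the longest run of C and T in capitals.
*Rplp0*, chr5:115559452-115559481, plus strand: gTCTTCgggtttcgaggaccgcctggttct
*Rpl4*, chr9:64173372-64173401, plus strand: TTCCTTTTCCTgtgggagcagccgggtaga
*Rps6*, chr4:86857353-86857382, minus strand: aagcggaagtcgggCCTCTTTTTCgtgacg
*Rpl15*, chr14:18270972-18271001, minus strand: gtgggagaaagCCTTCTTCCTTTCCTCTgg
*Rps2*, chr17:24720048-24720077, plus strand: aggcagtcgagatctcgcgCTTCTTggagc
*Rpl41*, chr10:128549154-128549183, minus strand: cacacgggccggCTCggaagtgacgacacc
*Rps27*, chr3:90213634-90213663, minus strand: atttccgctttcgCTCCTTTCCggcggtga

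The run spans the annotated start in *Rps6*, *Rpl15* and *Rps27*, lies before it in *Rplp0*, *Rpl4* and *Rpl41*, and after it in *Rps2*. RefSeq promoters were found for 59 members, with 71 starts. A run of 8 or more pyrimidines lay in this window in 28 of the 71 (39.4%), against 12% of all 32851 RefSeq promoters, and the median longest run was 6 bases against 4. The letters CGGAAG, searched on both strands over the 300 bases from 250 before to 50 after the start, were present in 43 of 71 (60.6%) against 16.9% of all promoters. The letters TATAAA, searched 40 to 15 bases before the start, were found in 0 of 71 and in 1.99% of all promoters. These matches are descriptions of sequence, and an annotated start may lie some bases from the start used in these cells.

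Levels are in CPM, which divides the counts of each gene by its library's TMM-adjusted size. Library totals ranged from 2970148 to 19333325 counts. Changes are log2 fold changes with their SE from edgeR's quasi-likelihood test of all 16 libraries, and a gene was called when its Benjamini-Hochberg adjusted p over all genes tested (FDR) was below 0.1. *Card9* itself had 27 to 842 counts per library, with 16.7 to 34.8 CPM in the libraries labelled *Card9*-/- and 13.6 to 51.3 CPM in WT. Its log2 fold change between them was -0.34 ± 0.45 (SE, n = 4 and 4) with FDR 0.97 by edgeR's quasi-likelihood test, so the counts do not check that label. In bulk RNA, fewer cells of a type and less RNA per cell cannot be told apart.

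Members took a widely varying share of each library. In WT they took 4.21%, 1.43%, 1.73% and 1.82% of the counts in replicates 1 to 4. In *Card9*-/- they took 1.89%, 0.936%, 1.45% and 5.15%. In 5xFAD they took 4.24%, 3.06%, 3.02% and 2.36%. The ranges of these genotypes overlap, since the highest WT and *Card9*-/- libraries reach the level of 5xFAD. In *Card9*-/-5xFAD the shares were 2.8%, 2.29%, 3.33% and 6.17%. The means were 2.3% ± 1.29 in WT, 2.36% ± 1.9 in *Card9*-/-, 3.17% ± 0.782 in 5xFAD and 3.65% ± 1.74 in *Card9*-/-5xFAD (SD, n = 4 each). The plot of member shares by library shows one library standing high in WT, *Card9*-/- and *Card9*-/-5xFAD.

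**Figure D1:**
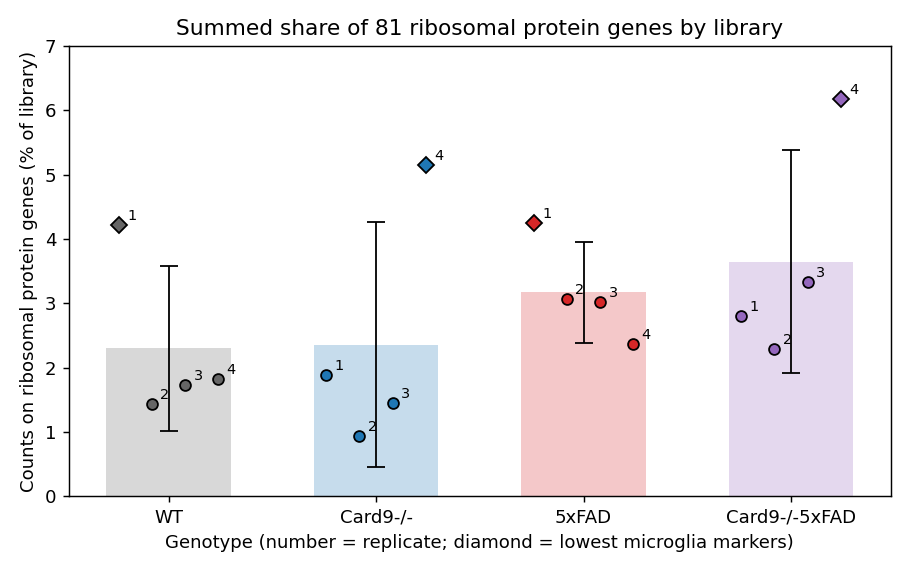
Percent of all counts of each library that fall on the ribosomal protein genes (vertical axis) in the 4 genotypes, with 1 point per library numbered by replicate, a bar for the mean, an error bar for the SD (n = 4) and a diamond for the library of lowest summed microglia markers. WT replicate 1 sits at 4.21% above the other WT libraries at 1.43% to 1.82%, and *Card9*-/- replicate 4 and *Card9*-/-5xFAD replicate 4 sit at 5.15% and 6.17%, all of them diamonds.

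Within each genotype the members moved together between libraries. WT replicate 1 was the highest WT library for 73 of 79 members (38.6% of all genes tested), *Card9*-/- replicate 4 for 72 (36.9%), 5xFAD replicate 1 for 74 (40.1%) and *Card9*-/-5xFAD replicate 4 for 68 (38.2%). At the other end, *Card9*-/- replicate 2 was the lowest of its genotype for 77 of 79 members (22.9% of all genes), 5xFAD replicate 4 for 72 (34.1%), WT replicate 2 for 66 (28.3%) and *Card9*-/-5xFAD replicate 2 for 60 (19.1%). The 4 high libraries were also those with the lowest summed microglia markers of their genotypes, 15387, 18378, 16456 and 17648 CPM against 20572 to 33680 CPM in the rest. In the same 4 libraries the summed neutrophil markers were 3597, 6298, 2097 and 5982 CPM and those of choroid plexus 1731, 3008, 1468 and 1205 CPM, each the highest of its genotype. The sums of astrocyte, endothelial, monocyte, T or NK cell and border-associated macrophage markers and of mitochondrial ribosome genes were also each the highest of their genotype there. Those of B cell markers and of mTORC1, Myc and LARP1 regulators were each the lowest. Oligodendrocyte markers were the lowest of their genotype in WT replicate 1, 5xFAD replicate 1 and *Card9*-/-5xFAD replicate 4, but not in *Card9*-/- replicate 4. Neuron markers were the lowest of their genotype in 5xFAD replicate 1 and the highest in the rest of these libraries. The 79 listed genes of nuclear oxidative phosphorylation summed to 31087, 47245, 33973 and 62137 CPM there, against 5411 to 23440 CPM elsewhere. The part of these other cells, or of RNA quality, in the members' levels was not tested.

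**Figure D2:**
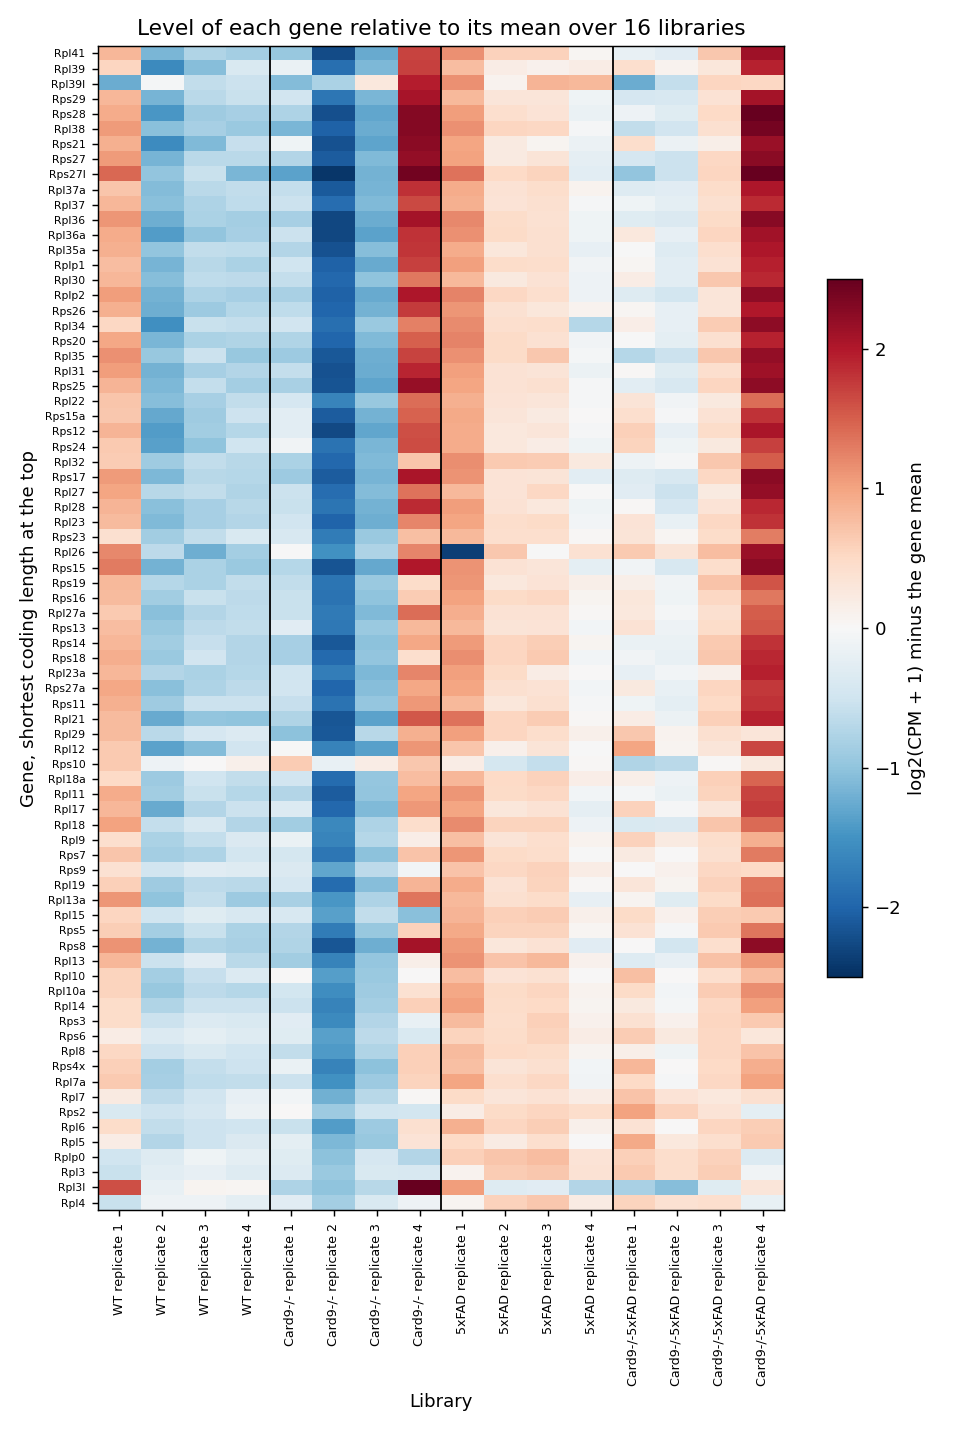
Deviation of log2(CPM + 1) of each of the 77 tested members with a coding length (rows, shortest at the top) from its mean over the 16 libraries (columns, grouped by genotype), on a scale that saturates past its ends. The columns of WT replicate 1, *Card9*-/- replicate 4, 5xFAD replicate 1 and *Card9*-/-5xFAD replicate 4 are red across most members, least so among the longest ones at the bottom, and that of *Card9*-/- replicate 2 is blue.

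Spread between libraries differed by gene length. The SD of log2 CPM within genotypes had a median of 0.91 over 79 members and of 0.62 over all 14513 genes tested, and a median of 69.3% of a member's variance lay within genotypes against 79.2% over all genes. Members with a coding sequence under 300 nt had a median SD of 1.25, those from 300 to under 450 nt 1.06, those from 450 to under 600 nt 0.81 and those of 600 nt or more 0.52. Other genes in these classes had median SDs of 0.95, 0.71, 0.58 and 0.56, so that the fall with length was steeper among members. Across 77 members with a coding length the SD followed log2 length with Pearson's r -0.66 and Spearman's rho -0.78, a description across genes of the same libraries, which are not independent.

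**Figure D3:**
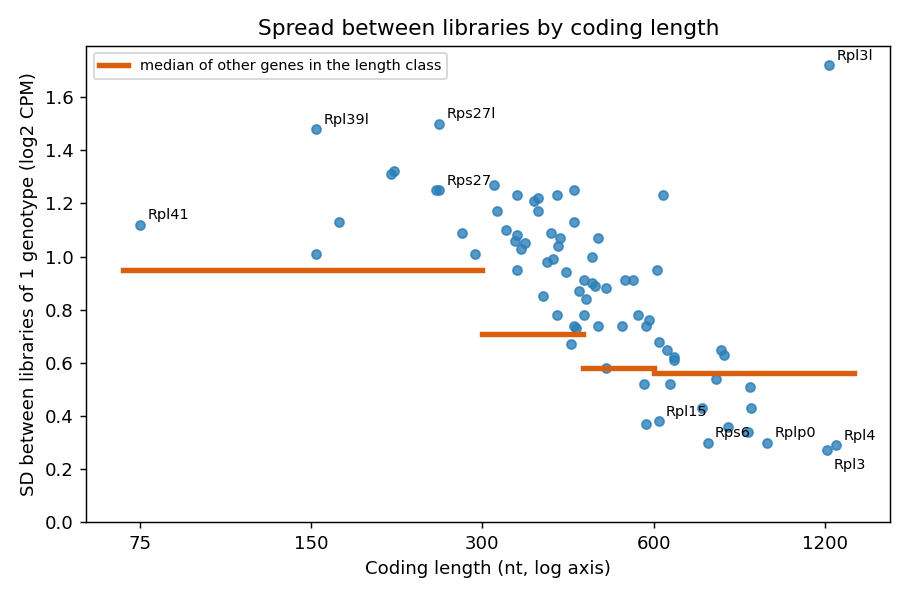
SD of log2 CPM between libraries of 1 genotype (vertical axis) against coding length in nt (log horizontal axis), with 1 point for each of 77 members and orange lines for the median of other genes in a length class. *Rpl3* lies at 0.27, and the shorter *Rpl41* and *Rps27* at 1.12 and 1.25, while the lowly expressed *Rpl3l* stands apart at 1.72.

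The short members show this spread in single values. *Rpl41*, the shortest member with 75 nt of coding sequence and the highest level per length (1977 CPM per kb of mRNA), measured 1135, 288, 378 and 352 CPM in WT, 333, 135, 268 and 2051 CPM in *Card9*-/-, 1406, 956, 955 and 664 CPM in 5xFAD, and 559, 526, 1024 and 2793 CPM in *Card9*-/-5xFAD. WT replicate 1 lay inside the 5xFAD range and *Card9*-/- replicate 4 inside that of *Card9*-/-5xFAD, so both pairs of genotypes overlapped. *Rps27*, a 40S protein with 1783 CPM per kb, measured 912, 194, 273 and 271 CPM in WT and 263, 102, 203 and 1990 CPM in *Card9*-/-. The same libraries were high. Of its 50-base stretches, 98.6% also occur in another gene, so its counts depend on how shared reads were treated. Such shares are not given here for the other members, to which the same limit may apply. *Rps27l*, the paralog of *Rps27* and known as a p53 target, measured 655, 122, 165 and 110 CPM in WT and 95.2, 44.4, 107 and 1303 CPM in *Card9*-/-.

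The first comparison asks how ribosomal protein genes differ between CD11b+ cells of 5xFAD and WT mice. Of 79 members, 77 had a positive log2 fold change (38.9% of all genes tested), with a median of 0.68 and a middle range of 0.6 to 0.76, against a median of -0.15 over all genes. Scaling by library totals gave 0.45 against -0.38, and scaling to the family's own summed counts gave 0.02, since that measures each member against the family. None passed FDR 0.1 by edgeR's quasi-likelihood test (2.09% of all genes passed, 1.57% as higher). At an unadjusted p under 0.05, 8 were higher and 0 lower, against 5.12% and 5.72% of all genes, and the lowest FDR by edgeR was 0.156. DESeq2 called 3, and its share of all genes is not given here.

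The P-stalk gene *Rplp0* is a scaffold of the 60S stalk and lies on chromosome 5 from 115559467 to 115563727 on the plus strand of GRCm38. It measured 443, 501, 583 and 528 CPM in WT and 956, 1011, 1076 and 797 CPM in 5xFAD. The ranges did not overlap. Its log2 fold change was 0.9 ± 0.27 (SE, n = 4 and 4), FDR 0.156 by edgeR's quasi-likelihood test. *Rpl3*, whose protein lies at the peptidyl transferase center, measured 381, 461, 486 and 448 CPM in WT and 593, 861, 892 and 715 CPM in 5xFAD. Its log2 fold change was 0.78 ± 0.26 with FDR 0.209 in the same edgeR test. *Rps2*, a 40S protein at the mRNA entry, measured 243, 220, 235 and 285 CPM in WT and 358, 442, 461 and 426 CPM in 5xFAD, again without overlap. In 6 members every 5xFAD library lay above every WT library, *Rpl3*, *Rpl39l*, *Rpl4*, *Rplp0*, *Rps2* and *Rps6*, against 4.35% of all genes. *Rpl39l* did so at a very low level, 0 to 1.28 CPM in WT and 1.51 to 4.25 CPM in 5xFAD, and its log2 fold change in the second comparison was -0.93 ± 1.15.

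The second comparison asks the same of mice labelled *Card9*-/-. Between CD11b+ cells of *Card9*-/-5xFAD and *Card9*-/- mice, 76 of 79 members had a positive log2 fold change (39.4% of all genes). The median was 0.83 with a middle range of 0.57 to 0.97, against -0.15 over all genes. Library totals gave 0.65 against -0.39, and scaling to the family -0.01. In edgeR's quasi-likelihood test 2 members rose past FDR 0.1 (1.97% of all genes passed, 1.49% as higher), *Rpl15* and *Rps6*, and both lost the call with library totals or in a fit of the groups compared alone. Without *Card9*-/- replicate 4, 37 of 80 members were called (4.84% of all genes), and without *Card9*-/- replicate 2 or 3 or *Card9*-/-5xFAD replicate 1 or 3, 0 were (0.804% to 1.15% of all genes). At an unadjusted p under 0.05, 19 were higher and 0 lower, against 6.49% and 5.72% of all genes.

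*Rpl15*, a 60S protein, lies on chromosome 14 from 18267823 to 18271391 on the minus strand. It measured 192, 98.1, 165 and 123 CPM in *Card9*-/- and 355, 273, 391 and 401 CPM in *Card9*-/-5xFAD. No library of one genotype reached the other's range. It rose by a log2 fold change of 1.29 ± 0.31 (SE, n = 4 and 4) with FDR 0.0567 in edgeR's quasi-likelihood test. *Rps6*, the 40S protein phosphorylated by S6 kinase downstream of mTORC1, measured 254, 121, 199 and 238 CPM in *Card9*-/- and 487, 369, 447 and 378 CPM in *Card9*-/-5xFAD. It rose by 1.05 ± 0.27 with FDR 0.0765 in edgeR's test. In 5xFAD against WT the same genes had 0.68 ± 0.3 and 0.62 ± 0.27, with FDR 0.427 and 0.403 by edgeR. In the second comparison 8 members had no overlap (3.53% of all genes were higher without overlap), *Rpl15*, *Rps6*, *Rpl3*, *Rpl10* and, named after their values were seen, *Rpl7*, *Rpl9*, *Rps3* and *Rps9*. *Rplp0* was not among them, since *Card9*-/-5xFAD replicate 4 at 494 CPM lay within the *Card9*-/- range of 308 to 511 CPM.

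Libraries with the same replicate number had positively correlated deviations within a *Card9* genotype. The correlations of their deviations were 0.71, 0.27, 0.29 and 0.54 between WT and 5xFAD and 0.53, 0.6, 0.13 and 0.73 between *Card9*-/- and *Card9*-/-5xFAD, across genes. Some libraries of other numbers correlated as well, such as WT replicate 2 with 5xFAD replicate 4 at 0.43 and *Card9*-/- replicate 2 with *Card9*-/-5xFAD replicate 1 at 0.63. Of 16 libraries, 10 correlated best with their own number. A fit with a block for each number within each *Card9* genotype, chosen after the data were seen, was also made. In it, 62 of 79 members rose in 5xFAD against WT and 73 in *Card9*-/-5xFAD against *Card9*-/-, and 0 fell. Of all genes 8.93% and 11.2% rose and 7.07% and 9.19% fell, 16% and 20.4% in all. The median log2 fold changes were 0.84 and 1.08, with a median SE of 0.26. Of these calls, 61 were shared, 98.4% of the first list and 83.6% of the second. A block that joins the same number over all 4 genotypes called 0 and 2.

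In the pairs 1 to 4 of WT and 5xFAD, 66, 77, 77 and 76 of 79 members were higher in 5xFAD, with median differences in log2 CPM of 0.23, 1.4, 1.11 and 0.6. In the pairs of *Card9*-/- and *Card9*-/-5xFAD, 75, 77, 78 and 73 were higher in *Card9*-/-5xFAD, by medians of 0.7, 1.72, 1.52 and 0.38. In all, 60 of 79 members were higher in each of the 8 pairs, against 9.96% of all genes tested. Pairs 2 and 3 carried the largest differences. Without pair 2 or pair 3 of WT and 5xFAD, the blocked fit called 4 and 1 of 80 members in place of 62 of 79, and 5.62% and 4.2% of all genes in place of 16%. Without those of *Card9*-/- and *Card9*-/-5xFAD it called 33 of 80 and 47 of 79 (46 higher and 1 lower) in place of 73, and 7.65% and 11.5% of all genes in place of 20.4%.

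**Figure D4:**
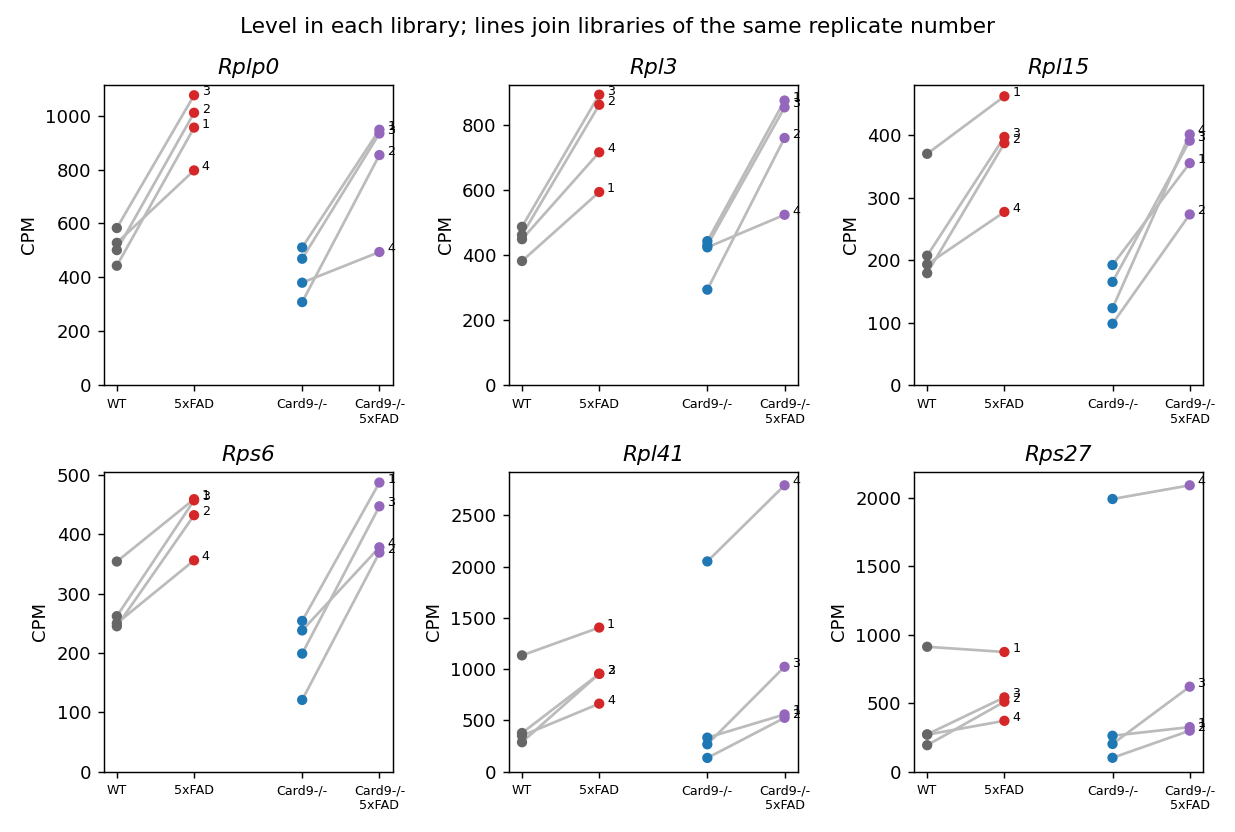
Level in CPM (vertical axis from 0) of 6 members in each library of the 4 genotypes, with lines that join the non-transgenic and the 5xFAD library of the same replicate number. All lines of *Rplp0*, *Rpl3*, *Rpl15*, *Rps6* and *Rpl41* go up, and 1 line of *Rps27* goes down, from 912 to 874 CPM between WT and 5xFAD replicate 1.

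P-stalk and 60S members had the values below in the fit with the block, which was chosen after the data were seen. The labels give the replicate numbers no meaning, so these FDRs hold only if same-numbered libraries belong together. Without the block, *Rpl15* alone among the members named here was called, and only in the second comparison. *Rplp0* rose by 0.9 ± 0.2 with FDR 0.017 and by 0.94 ± 0.2 with FDR 0.0109 in edgeR's blocked test. *Rplp1* and *Rplp2*, the acidic proteins bound to it, rose by 0.93 and 0.95 with FDR 0.0648 and 0.06 in edgeR's test for 5xFAD against WT, and by 1.05 and 0.96 with FDR 0.0318 and 0.0436 in the second comparison. *Rpl5* and *Rpl11*, which form the 5S particle that binds MDM2, rose by 0.64 and 0.81 (FDR 0.0836 and 0.0652 by edgeR) and by 1.08 and 1.21 (FDR 0.00824 and 0.00982 by edgeR). *Rpl39l* rose by 2.2 ± 0.7 with FDR 0.072 in the first comparison and had -0.37 ± 0.76 with FDR 0.772 in the second, and its interaction was -2.57 ± 1.04 with FDR 1 by edgeR. *Rpl41* rose by 1.07 and 1.27, with FDR 0.0428 and 0.0159 in edgeR's blocked test, although the ranges of its genotypes overlap. *Rpl3* rose by 0.77 and 0.92 (FDR 0.03 and 0.0104 by edgeR), *Rpl4* by 0.64 and 0.71 (FDR 0.0756 and 0.0421 by edgeR), and *Rpl15* by 0.72 and 1.32 (FDR 0.042 and 0.00142 by edgeR).

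The same limit holds for the 40S members, of which *Rps6* alone was called without the block, in the second comparison. *Rps6* rose by 0.63 and 1.1 with FDR 0.0617 and 0.00376, and *Rps2* by 0.78 and 0.89 with FDR 0.0386 and 0.0162, in edgeR's blocked test. *Rps19*, a gene of Diamond-Blackfan anemia, rose by 0.79 ± 0.21 with FDR 0.0424 and by 1.32 ± 0.22 with FDR 0.00262 in edgeR's blocked test. *Rps27a*, which is made as a fusion with ubiquitin, rose by 0.8 and 1.24 (FDR 0.0756 and 0.00968 by edgeR). *Rps27* had 0.7 with FDR 0.153 in the first comparison and rose by 0.89 with FDR 0.0709 in the second, by edgeR, and the interaction called 0 members in this fit. *Rps27l* likewise had 0.85 with FDR 0.105 and rose by 1.06 with FDR 0.0462 by edgeR.

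In neither fit and neither comparison were 5 members called, *Rpl3l*, *Rps10*, *Rps4l*, *Rpl26* and *Rps29*. *Rpl3l*, the muscle paralog of *Rpl3*, was at 0.0414 to 17 CPM in *Card9*-/- and 0 to 1.6 CPM in *Card9*-/-5xFAD, with blocked values of -0.87 ± 0.6 and -1.3 ± 0.82. *Rps10* held 264 counts in all and shares 475 nt with an overlapping gene on its strand, and its values were -0.58 ± 0.42 and -1.01 ± 0.43 with FDR 0.38 and 0.14 by edgeR. *Rps4l* lies on a pseudogene locus and had 0.39 ± 0.27 and 0.49 ± 0.28. *Rpl26* had 0.39 ± 0.66 and 1.25 ± 0.58, and 5xFAD replicate 1 measured 52.9 CPM against 273 to 437 CPM in the other 5xFAD libraries. *Rps29* had 0.72 ± 0.3 and 0.75 ± 0.31 with FDR 0.149 and 0.123 by edgeR, and was named after its values were seen. Of the other pseudogene loci, *Rpl6l*, also named after its values were seen, rose with the block by 0.94 and 0.99 (FDR 0.0375 and 0.0233 by edgeR), and *Rpl32l* was not tested. *Rpl24*, likewise not tested, at 1.41 CPM per kb, shares 484 nt with an overlapping gene.

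Over all genes, shorter genes were relatively higher in the 5xFAD library of each same-numbered pair. The slope of log2 CPM deviation on log2 coding length was lower in the 5xFAD library of each of the 8 pairs. It was lower by 0.174, 0.158, 0.172 and 0.182 between WT and 5xFAD and by 0.109, 0.293, 0.336 and 0.097 between *Card9*-/- and *Card9*-/-5xFAD. The genotype ranges overlapped, from -0.085 to 0.186 in WT and -0.257 to 0.004 in 5xFAD. In *Card9*-/- the range was 0.038 to 0.384 and in *Card9*-/-5xFAD -0.208 to 0.114. The slope also differed with *Card9* genotype, with medians of -0.057 in WT, 0.175 in *Card9*-/-, -0.223 in 5xFAD and 0.016 in *Card9*-/-5xFAD. With this slope as a covariate, edgeR's fit called 0 and 0 members (1.65% and 1.3% of all genes as higher, 0.51% and 0.234% as lower), and the medians were -0.03 and 0.22. By length class they were 0.36 and 0.59 for members of 600 nt or more and -0.29 and -0.3 for those under 300 nt. The long members named above kept positive values with the slope, 0.82 and 0.87 for *Rplp0*, 0.69 and 0.83 for *Rpl3* and 0.9 and 1.04 for *Rps2*. *Rpl15* had 0.45 and 1.02 and *Rps6* 0.43 and 0.86, with FDR 0.215 and 0.201 by edgeR in the second comparison. In the blocked fit with the slope it called 0 and 0 as well (0.365% and 0.172% of all genes as higher, 0.0276% as lower in each), the medians were 0.08 and 0.15, and the median SEs were 0.42 and 0.48 against 0.26. Unadjusted p-values under 0.05 were then found for 0 members as higher and 1 as lower, and for 1 and 1 (2.86% and 2.9% of all genes as higher, and 3.53% and 3.63% as lower). The slope and the transgenes cannot be told apart here.

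**Figure D5:**
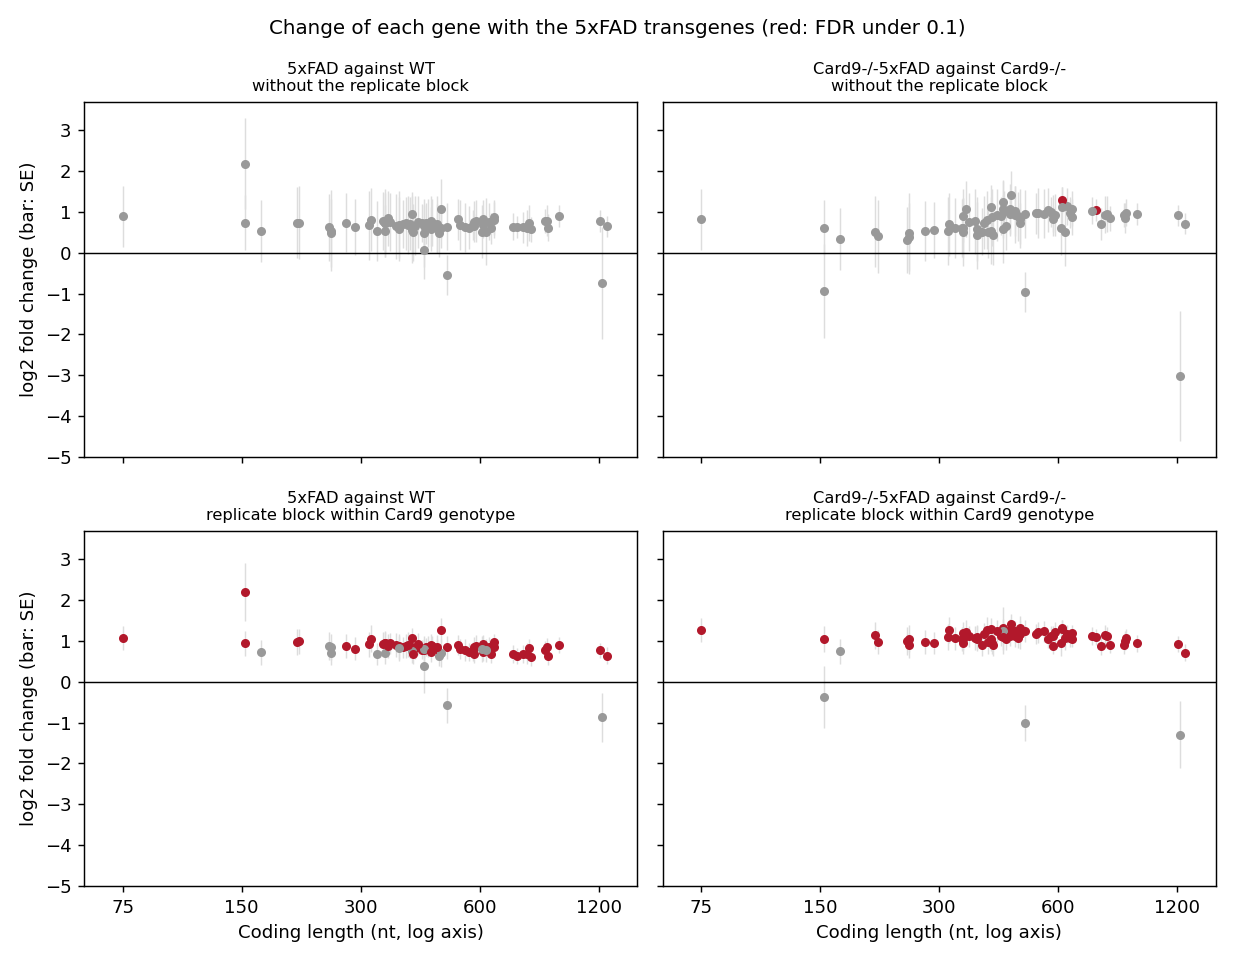
Log2 fold change with its SE (vertical axis) of each of 77 members against coding length in nt (log horizontal axis), for 5xFAD against WT (left) and *Card9*-/-5xFAD against *Card9*-/- (right), without the replicate block (top) and with it within *Card9* genotype (bottom). Members called at FDR 0.1 are red: 0 and 2 in the fit without the block, and most in the fit with it.

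Members had higher median log2 fold changes than other genes of their own length class, by a margin that depended on the fit. In the blocked fit of 5xFAD against WT, members under 300 nt had a median of 0.88 against 0.46 for other genes, those from 300 to under 450 nt 0.87 against 0.41, those from 450 to under 600 nt 0.81 against 0.27 and those of 600 nt or more 0.77 against -0.19. In *Card9*-/-5xFAD against *Card9*-/- the medians were 0.97 against 0.68, 1.1 against 0.55, 1.16 against 0.36 and 1.07 against -0.2. Without the block they were 0.73 against 0.35, 0.7 against 0.3, 0.66 against 0.24 and 0.65 against -0.2 in the first comparison. In the second they were 0.48 against 0.43, 0.7 against 0.48, 0.95 against 0.37 and 0.93 against -0.19, so the shortest members differed little from other genes there. Called as higher with the block were 7 and 9 of 11 members under 300 nt, against 31.6% and 48.8% of other genes. From 300 to under 450 nt it was 21 and 26 of 27 members against 21.9% and 46.9%, and from 450 to under 600 nt 15 and 17 of 18 against 20.9% and 33.1%. In the longest class it was 18 and 20 of 21 members against 6.46% and 6.87%. This difference between classes was described and not tested.

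*Card9* deletion had no member called in either background. For *Card9*-/- against WT the median was 0.05 (0.11 over all genes), with 1 member at an unadjusted p under 0.05 (4.11% of all genes), 0 called by DESeq2 and 0 of all genes called by edgeR. Without *Card9*-/- replicate 4 the median was -0.84 and without WT replicate 1 it was 0.67, so single libraries set its sign. For *Card9*-/-5xFAD against 5xFAD the median was 0.23 (0.14 over all genes), with 0 at an unadjusted p under 0.05 (2.52% of all genes) and 0 called by edgeR or DESeq2. Without *Card9*-/-5xFAD replicate 4 it was -0.3. The interaction of *Card9* genotype and transgenes called 0 members, with a median of 0.11 and 0 at an unadjusted p under 0.05 (0.537% of all genes), and DESeq2 called 0.

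Leaving out the library of lowest microglia markers in each genotype, a choice made after the data were seen, left 78 members and called 50 as higher in 5xFAD against WT (5% of all genes higher, 2.98% lower) and 74 in *Card9*-/-5xFAD against *Card9*-/- (10.4% higher, 6.27% lower), with 0 members lower. The medians were 1.09 and 1.27. The medians for *Card9* deletion turned to -0.31 and -0.12, with 0 called. The libraries left out were also the highest of their genotypes for most members, so the omission takes away the members' highest values. The counts called cannot be separated from that choice.

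Of the related lists, the 8 ribosomal protein genes named outside the pattern, such as *Rpsa* and *Rack1*, had medians of 0.62 and 0.72, 0 called without the block and 5 called as higher with it in each comparison. The 18 translation factors and other TOP genes were all positive, with medians of 0.53 and 0.67, 0 called without and 7 and 16 with the block. Of the elongation factor subunits in this list, *Eef1g* had 0.68 and 0.97 with FDR 0.398 and 0.14 by edgeR. Among 34 ribosome biogenesis genes, *Npm1*, a nucleolar chaperone, rose by 1.18 ± 0.3 with FDR 0.0734 by edgeR in *Card9*-/-5xFAD, the single call without the block, and the list's medians were 0.08 and 0.06. With the block 5 rose, and 4 rose and 1 fell. Of all genes 8.93% and 11.2% rose and 7.07% and 9.19% fell with the block, against which the blocked counts of all these lists are to be read. The 16 mTORC1, Myc and LARP1 regulators had medians of -0.19 in both comparisons, with 0 called, and with the block 2 rose, and 1 rose and 2 fell. The 11 genes of the p53 response had medians of -0.2 and -0.03 with 0 called, and with the block 1 rose and 1 fell, and 2 rose.

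Of the 77 mitochondrial ribosome genes tested, 0 were called without the block and 15 and 42 rose with it, against 8.93% and 11.2% of all genes. Of the 76 nuclear oxidative phosphorylation genes, 0 were called without and 30 and 59 rose with it. Of 25 early response genes, which dissociation can induce, 0 were called without the block, and with it 2 rose and 8 fell, and 2 rose and 1 fell. Of the 3 tested nuclear long non-coding RNAs, 0 were called without the block, and 1 fell with it in *Card9*-/-5xFAD.

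The 10 microglia markers were present in all libraries, with 0 called without the block. Of the other cell type lists in the same fit, border-associated macrophage markers fell in 3 and 1 of 8 genes, astrocyte markers rose in 1 of 8 in each comparison and endothelial markers fell in 1 of 8 in the first. Neuron, oligodendrocyte, choroid plexus, neutrophil, B cell, T or NK cell and monocyte markers had 0 called, and no red blood cell marker passed the filter, with a summed level of at most 0.882 CPM. With the block, border-associated macrophage markers fell in 5 of 8 genes in each comparison, monocyte markers in 2 of 6 in each and neutrophil markers in 0 and 3 of 8. Of all genes 7.07% and 9.19% fell and 8.93% and 11.2% rose in that fit. Astrocyte markers rose in 2 and fell in 1 of 8 in each, and endothelial markers rose in 1 and fell in 1 of 8 in each. Oligodendrocyte markers fell in 0 and 2 of 5 and T or NK cell markers in 1 and 0 of 5, and of neuron, choroid plexus and B cell markers 0 were called, while 1 microglia marker rose in the first and 1 rose and 2 fell in the second.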

How the data were processed

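Bulk RNA-Seq counts of 16 libraries were analysed. Per the labels and the study's methods, the authors aligned reads to mm10 with HISAT2, filtered them with SAMtools and counted them with HTSeq; the authors deposited whole-number counts per gene, without normalization. Tool versions, the strand setting and the handling of multi-mapped reads were not given in the sources used here. The counts were tested in R 4.3.3 with edgeR 4.0.16 (TMM, filterByExpr minimum count 10, quasi-likelihood test, all libraries in 1 fit, FDR threshold 0.1); DESeq2 1.42.0 and sva 3.50.0 served alternatives, with limma 3.58.1 loaded by edgeR. Log2 CPM used a prior count of 2. Gene positions and lengths came from GENCODE M21 of GRCm38 and promoters from RefSeq GRCm38.p6. Coding length replaced the planned transcript length in the length slope. Depth was 2970148 to 19333325 counts per library, which limits low genes most; counting error is only part of the spread.

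Samples were grouped by the genotype in their labels. No label says that libraries came from separate mice, so p-values measure the spread between these libraries. All pairs within a genotype differed beyond sampling noise, with a chi-square over genes of at least 6.92 per degree of freedom. Members and gene lists were chosen with earlier results of these data known. Named members were those with fixed roles (P stalk, paralog pairs, *Rps6*, *Rpl5*, *Rpl11*, *Rps19*, *Rps27a*, *Rpl41*), those called, and those of lowest p, extreme level or extreme spread. The replicate numbers are a label without a stated meaning. Same-numbered libraries correlated at 0.13 to 0.73 within a *Card9* genotype, and 10 of 16 correlated best with their own number. Across *Card9* genotypes some correlations were negative, so the block within a *Card9* genotype, its combination with the length slope, the pair omissions and the omission of libraries low in microglia markers were added after the data were seen. Omitting the libraries of steepest length slope and an 8-against-8 contrast were also tried and were not kept. The main edgeR fit was tested on simulated counts, for the first comparison only. The replicate block, the length slope, the surrogate variable, the omissions and the scaling to the family were not tested in this way.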

Additional observations from a re-analysis of the deposited data

Results flagged for a closer look

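In 7 of 108 groups of 4 libraries over 26 named members and the summed share, 1 library stood apart by Dixon's criterion at the 95% level, which chance gives in about 1 group in 20. WT replicate 1 had 4.21% of its counts on members against 1.43% to 1.82% in the other WT libraries, and its *Rps19* level was 9.69 log2 CPM against 8.08 to 8.25. *Rplp0* in *Card9*-/-5xFAD replicate 4 was 8.95 log2 CPM, below 9.74 to 9.89, although that library was the highest of its genotype for most members. *Rpl3* in *Card9*-/- replicate 2 was 8.2 log2 CPM against 8.73 to 8.79. *Rpl3l* in *Card9*-/- replicate 4 was 4.11 log2 CPM against -1.91 to -0.94. *Rpl39* in 5xFAD replicate 1 was 8.15 log2 CPM against 7.47 to 7.57, and *Rps4l* in WT replicate 4 was 5.77 log2 CPM against 6.33 to 6.41.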

How the results depend on the processing

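Counts of members called depended on the fit. For DESeq2 and the surrogate variable the shares of all genes called are not given here, so those counts cannot be read against a background. In 5xFAD against WT (0 called), DESeq2 called 3, 1 surrogate variable 54, the replicate block within *Card9* genotype 62 and the omission of the libraries lowest in microglia markers 50, while a replicate block over all genotypes called 0 and leaving out single libraries 0 to 1. In *Card9*-/-5xFAD against *Card9*-/- (2 called), DESeq2 size factors gave 4, library totals 0, no filter 1, DESeq2 11, only the groups compared 0, 1 surrogate variable 71 (70 higher and 1 lower), the length slope 0, an FDR threshold of 0.05 gave 0, the replicate block within *Card9* genotype 73, the same block with the length slope 0, and the omission of those libraries 74. The replicate block over all genotypes gave 2, and leaving out single libraries 0 to 37, the highest without *Card9*-/- replicate 4 and the lowest without *Card9*-/- replicate 2 or 3 or *Card9*-/-5xFAD replicate 1 or 3. With the paired block, leaving out pairs gave 1 to 73 and 33 to 74. *Card9* deletion and the interaction had 0 called in every fit run. Medians without single libraries ranged from 0.5 to 1.24 and from 0.34 to 1.77 in the 2 transgene comparisons, from -0.84 to 0.67 and from -0.3 to 0.43 for *Card9* deletion, and from -0.31 to 1.1 for the interaction. Shares ranged from 1.66% to 2.59%, 1.43% to 2.83%, 2.81% to 3.44% and 2.81% to 4.1% in WT, *Card9*-/-, 5xFAD and *Card9*-/-5xFAD, and the median SD from 0.74 to 0.93. Scaling to the family's summed counts, which removes what members share, gave a median of -0.01 in the second comparison and an SD of 0.32, called 2 members there, both lower (*Rps10* -2.15 and *Rpl3l* -2.85, where 44% of all genes were called), and turned *Rplp0* to -0.02 and -0.16, *Rpl3* to -0.11 and -0.17, *Rpl4* to -0.27 and -0.34, *Rps2* to -0.07 and -0.12 and *Rps6* to -0.2 and -0.01 in the 2 comparisons, and *Rpl15* to -0.08 in the first. The cause of the other changes was not tested.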
